A study of Mus musculus with 12 samples.

Results

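Glul, Slc1a3, Aqp4, Kcnj10, Kcnj2, Car14, Dkk3 and Abca8a are 8 genes through which Müller glia, the main support cells of the retina, keep the tissue's glutamate, potassium, water and acid balance, or which mark these cells. They were picked by gene name among the 54367 genes of 2 deposited expression tables, 1 for day 3 and 1 for day 7 after laser injury of the mouse retina, and all 8 were found in both. The animals were wildtype C57BL/6 mice, 8 to 12 weeks old when obtained. A 532 nm laser with a 75 um spot and a 0.1 s pulse burned the retina of the right eye, and the unlasered left eye served as control. Anaesthesia with chloral hydrate and dilated pupils are stated for all mice. No transgene, drug or further allele is named for any group. Whole retinas were sequenced as poly(A) RNA in 4 groups of 3 libraries: lasered and control eyes on day 3, and lasered and control eyes on day 7. The labels do not say that the libraries of a group came from separate mice, so the p-values measure the spread between these libraries, which may be technical.

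Müller glia span the whole depth of the retina and wrap its neurons. They take up glutamate released at synapses and convert it to glutamine, pass potassium from active neurons to the vitreous and the blood vessels, and let water follow. After injury they become reactive: they increase intermediate filaments such as Gfap, and in many models of retinal disease their potassium channels and glutamine synthetase decrease.

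The deposited values are a normalised expression signal per gene, scaled for gene length and library depth. Levels of different genes within a table are set side by side on that scale. Effects of base composition on these levels were not removed. A day 3 library held 9282007 to 12515828 reads in genes, recovered from the steps of the deposited values, and a day 7 library 23886207 to 31092905. At an equal level a gene therefore carries less counting error on day 7. This does not hold for every member: Aqp4 had 181 to 752 reads on day 7 against 1083 to 2379 on day 3. The tables were normalised separately, and 31.8% of 12230 genes differed more than 5-fold between the control means of the days, so laser and control were compared within a day. The retina label was checked on 7 rod markers, which summed to 10241 to 28554 in day 3 libraries and to 41698 to 54865 in those of day 7. The first lasered library of day 3 stood apart, with a rod sum of 10241 against 25270 and 19296 in the other lasered libraries. On day 7 the second library of both eyes stood apart from the others of its eye in a way that followed the base composition of the genes. In RNA from whole retinas, fewer cells of a type and less RNA per cell cannot be told apart.

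No member passed the test on either day. The test was limma's moderated comparison on log2(value + 1), 2-sided, with Benjamini-Hochberg adjustment over all genes with a mean value of at least 1, and a threshold of 0.05. On day 3, 0 of the 8 members passed, beside 0.149% of all 16786 genes tested (25 genes). On day 7, 0 of the 7 members tested passed, beside 0.244% of 15592 genes (38 genes), and Kcnj2 lay under the filter. At an unadjusted p under 0.05 limma gave 3 of 8 members on day 3, namely Dkk3, Kcnj10 and Slc1a3, where 23.0% of all genes met that limit. On day 7 it gave 1 of 7, Car14, where 3.94% of all genes did. The members divided on day 3 into 4 with a positive and 4 with a negative log2 difference of laser minus control. Their median was -0.06, that of all genes was 0.16, and 68.2% of all genes were positive. On day 7 all 7 tested were positive (median 0.47, all genes 0.06, with 61.5% of all genes positive). Without the second lasered library of day 7 the split was 6 positive and 1 negative (median 0.15, all genes -0.01). The day 3 differences depend on the scaling: median-of-ratios rescaling moved the median of all genes on day 3 to -0.03 and quantile normalisation to -0.07, which left 3 members positive and 5 negative there (median -0.23 and -0.26). Under these scalings Kcnj10 was at 0.46 and 0.41, Dkk3 at 0.32 and 0.36, Slc1a3 at 0.15 under both (adjusted p = 0.57 and 0.492), and Glul at -1.15 and -1.12.

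**Figure D1:**
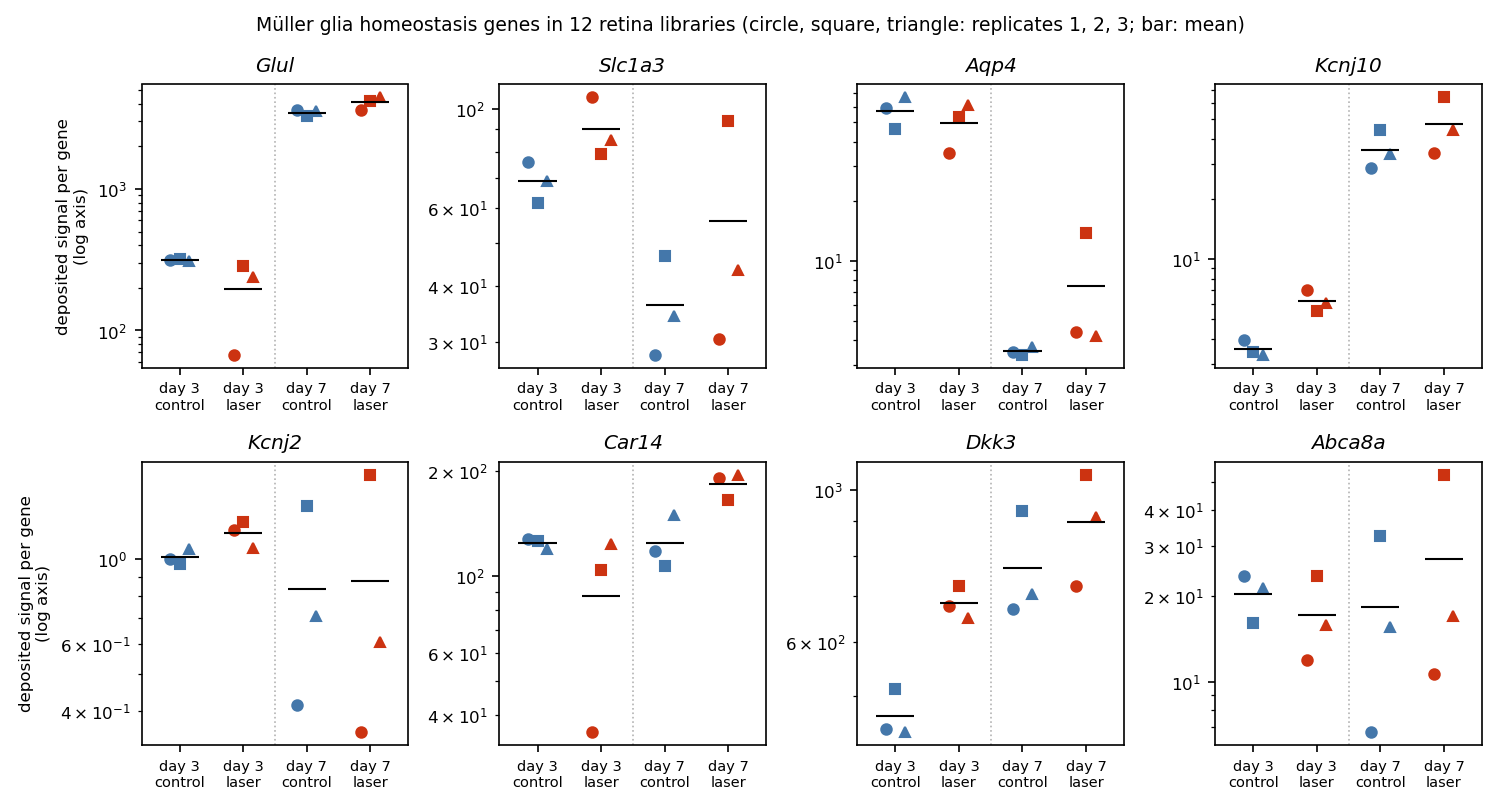
Deposited expression signal of the 8 members in each library, on a log axis, for control and lasered eyes on day 3 and day 7. Each point is 1 library and each short line a group mean. The first lasered library of day 3 has the lowest Glul (67.2) and Car14 (35.7), and the second lasered library of day 7 the highest Aqp4 of that day (13.9).

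The members differed in how closely they followed each other across the libraries. Over the 12 libraries, each taken as its log2 distance from the control mean of its day, the members closest to each other were Dkk3 with Kcnj10 (root mean square difference 0.17), Kcnj10 with Slc1a3 (0.22) and Car14 with Glul (0.27). Genes outside the list lay nearer still to Dkk3 (Vcp-rs, 0.09), Kcnj10 (Parva, 0.11), Slc1a3 (Pgm2l1, 0.12) and Glul (Gnat2, 0.23), while Glul was the gene nearest to Car14. Car14 and Glul were both far down in the first lasered library of day 3 (-1.77 and -2.21). On day 7 the lasered libraries lay at 0.63, 0.42 and 0.66 for Car14 and at 0.06, 0.28 and 0.36 for Glul. The 250 bases before the RefSeq start of the gene are shown for Slc1a3, Kcnj10, Glul and Car14, because they are in these closest pairs. For Slc1a3, Glul and Car14 that start differs from the gene bounds given below. The Car14 window ends inside those bounds. Shared regulation was not tested. The sequences are from RefSeq on GRCm38.p6, on the strand of the gene, 5′ to 3′, at chr15:8710808-8711057 (minus strand), chr1:172340960-172341209 (plus), chr1:153899679-153899928 (plus) and chr3:95904686-95904935 (minus). Capitals mark matches to 1 of 4 motifs searched on both strands: CCAAT, the TATA box TATAAA, the E-box CACGTG and TTCNNNGAA, the form bound by STAT factors.

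Slc1a3: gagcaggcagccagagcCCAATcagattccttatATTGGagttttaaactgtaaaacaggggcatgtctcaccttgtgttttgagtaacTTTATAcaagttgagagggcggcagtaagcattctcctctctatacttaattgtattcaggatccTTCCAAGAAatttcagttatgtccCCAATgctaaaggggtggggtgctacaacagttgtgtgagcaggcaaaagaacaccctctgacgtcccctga

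Kcnj10: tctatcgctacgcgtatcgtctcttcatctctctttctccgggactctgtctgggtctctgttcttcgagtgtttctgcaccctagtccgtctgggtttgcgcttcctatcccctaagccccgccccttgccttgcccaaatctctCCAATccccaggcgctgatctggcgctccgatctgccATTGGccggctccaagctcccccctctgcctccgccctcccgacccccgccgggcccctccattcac

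Glul: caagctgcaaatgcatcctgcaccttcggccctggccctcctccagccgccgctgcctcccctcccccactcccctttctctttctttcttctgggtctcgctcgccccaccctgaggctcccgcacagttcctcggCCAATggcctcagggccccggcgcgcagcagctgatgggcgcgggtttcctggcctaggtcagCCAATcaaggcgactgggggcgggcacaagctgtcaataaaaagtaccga

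Car14: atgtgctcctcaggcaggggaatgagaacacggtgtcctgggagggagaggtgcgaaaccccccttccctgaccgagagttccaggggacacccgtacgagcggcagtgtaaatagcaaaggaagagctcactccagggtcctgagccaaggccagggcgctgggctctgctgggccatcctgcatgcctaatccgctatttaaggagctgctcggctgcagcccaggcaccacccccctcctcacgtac

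Slc1a3 held the only STAT-type match among the 6 members whose promoter is in the RefSeq table. That match, TTCCAAGAA, lay from 96 to 88 bases before the RefSeq start, and 7.02% of 32851 promoters of the same length hold such a motif. Slc1a3 also held a TATA box, read on the other strand, which 12.4% of promoters hold, and 3 CCAAT boxes. Kcnj10 and Glul each held 2 CCAAT boxes, a motif of 33.9% of all promoters. Car14 held none of the 4 motifs in this window, and the E-box (6.02% of promoters) was found in Kcnj2 and Abca8a only. These matches describe the letters in the window and were not tied to binding.

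Glul (ENSMUSG00000026473, chr1:153899944-153909723 in mm10) codes for glutamine synthetase, which turns the glutamate taken up by Müller glia into glutamine. On day 3 its signal was 317, 318 and 310 in the control libraries and 67.2, 285 and 238 in the lasered libraries. All 3 lasered libraries lay below all controls, and the first lay far below the other lasered ones. The means were 315 ± 4.30 and 197 ± 114 (SD, n = 3 each), a log2 difference of -0.92 with a standard error of 0.50 (95% interval -2.09 to 0.25, adjusted p = 0.308). Without the first lasered library the difference was -0.28 (adjusted p = 0.334). That library had 1112 reads in Glul, against 6305 and 4105 in the other lasered libraries. On day 7 Glul was 3607.08, 3253 and 3539 in controls and 3610.34, 4203 and 4438 after laser. The lasered libraries again did not overlap the controls, now above them, but the lowest lasered value only just exceeded the highest control. The means were 3466 ± 188 and 4084 ± 427, a log2 difference of 0.23 with a standard error of 0.18 (95% interval -0.19 to 0.65, adjusted p = 0.9998). Glul shares 116 exon bases with Teddm2 on the other strand, and whether the authors counted by strand is not given in the sources used.

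Slc1a3 (ENSMUSG00000005360, chr15:8634124-8710764) codes for GLAST, the main glutamate uptake carrier of Müller glia. On day 3 it was 76.0, 61.5 and 69.1 in controls and 106, 79.1 and 85.4 after laser. Every lasered library lay above every control. By limma the log2 difference was 0.38 with a standard error of 0.16 (95% interval 0.0043 to 0.75, adjusted p = 0.214), and the means were 68.9 ± 7.24 and 90.2 ± 14.2. Slc1a3 on day 7 was 28.1, 46.7 and 34.3 in controls and 30.5, 94.1 and 43.4 after laser. The groups overlapped, and the second library was the highest of both eyes. The log2 difference was 0.48 with a standard error of 0.40 (adjusted p = 0.9998), and 0.03 without the second lasered library. Glul and Slc1a3, the enzyme and the carrier of the same route, lay on opposite sides of the controls on day 3.

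Kcnj10 (ENSMUSG00000044708, chr1:172341210-172374085) codes for Kir4.1, the inward rectifier that sets the resting potential of Müller glia and carries most of their potassium current. On day 3 it was 3.93, 3.45 and 3.32 in controls and 6.98, 5.51 and 6.07 after laser, from 91 to 193 reads a library. The groups did not overlap, and the lasered mean was 1.73-fold that of the controls. Its log2 difference of 0.65 had a standard error of 0.15 (95% interval 0.29 to 1.01, adjusted p = 0.0938) and was the highest of the members on that day. Kcnj10 on day 7 was 28.6, 44.0 and 33.4 in controls and 33.8, 64.4 and 44.2 after laser. The groups overlapped, and the log2 difference was 0.39 with a standard error of 0.26 (adjusted p = 0.9998), and 0.15 without the second lasered library.

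Kcnj2 (ENSMUSG00000041695, chr11:111066164-111076821) codes for Kir2.1, a second inward rectifier of glia and neurons. The day 3 values of Kcnj2 were 1.004, 0.970 and 1.06 in controls and 1.19, 1.25 and 1.07 after laser, from 28 to 46 reads a library. The lasered libraries lay just above the controls without overlap. The log2 difference was 0.11 with a standard error of 0.18 (adjusted p = 0.763). The sign turned under 2 other scalings, to -0.01 under median-of-ratios rescaling and -0.08 under quantile normalisation. On day 7 it was 0.415, 1.38 and 0.710 in controls and 0.353, 1.66 and 0.606 after laser, and was not tested because its mean lay under 1. The second library was the highest of both eyes, and the eyes overlapped.

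Aqp4 (ENSMUSG00000024411, chromosome 18 from 15389496 to 15410982, minus strand) codes for the water channel held at the perivascular and vitreal endfeet. On day 3 it was 58.8, 46.3 and 66.8 in controls and 34.9, 53.1 and 61.0 after laser, with overlap. The log2 difference was -0.22 with a standard error of 0.24 (adjusted p = 0.611), and 0.01 without the first lasered library. Aqp4 on day 7 was 3.47, 3.37 and 3.71 in controls and 4.37, 13.9 and 4.20 after laser. All lasered libraries lay above all controls, and the second lay far above the other lasered ones. The mean ratio was 2.13 (3.51 ± 0.176 against 7.49 ± 5.55), the log2 difference was 0.73 with a standard error of 0.42 (adjusted p = 0.9998), and without the second lasered library it was 0.23.

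Car14 (ENSMUSG00000038526, chr3:95897768-95904691) codes for carbonic anhydrase XIV, a membrane enzyme with its active site outside the cell, which takes part in carbon dioxide and acid handling. The day 3 values of Car14 were 128, 126 and 119 in controls and 35.7, 104 and 123 after laser. The first lasered library lay far below, and the third lay between the controls. The log2 difference was -0.68 with a standard error of 0.43 (adjusted p = 0.373), and -0.13 without the first lasered library (adjusted p = 0.690). On day 7 it was 118, 107 and 149 in controls and 191, 165 and 195 after laser. All 3 lasered libraries lay above all 3 controls, with means of 125 ± 21.9 and 184 ± 16.3, a ratio of 1.48. This was a log2 difference of 0.57 with a standard error of 0.16 (95% interval 0.19 to 0.94, adjusted p = 0.648). Car14 shares 445 exon bases with Aph1a on the other strand, so a part of its reads may belong to that gene.

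Dkk3 (ENSMUSG00000030772, chr7:112116017-112159057) codes for a secreted glycoprotein of the Dickkopf family, which marks Müller glia. The day 3 values of Dkk3 were 447, 512 and 442 in controls and 677, 723 and 650 after laser. Both groups were tight and far apart, with means of 467 ± 39.0 and 683 ± 36.8 and a ratio of 1.46. Dkk3 differed by 0.55 on the log2 scale, with a standard error of 0.12 (95% interval 0.26 to 0.84, adjusted p = 0.0936). On day 7 it was 670, 932 and 703 in controls and 724, 1053 and 912 after laser. The eyes overlapped, and the log2 difference was 0.22 with a standard error of 0.20 (adjusted p = 0.9998). It was 0.10 without the second lasered library and 0.37 without the second control library.

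Abca8a (ENSMUSG00000041828, chr11:110025634-110095978) codes for a lipid transporter of the ATP-binding cassette family. On day 3 it was 23.6, 16.2 and 21.4 in controls and 12.0, 23.6 and 15.9 after laser, with overlap and a log2 difference of -0.27 with a standard error of 0.26 (adjusted p = 0.571). Without the first lasered library that difference was -0.05. On day 7 it was 6.70, 32.4 and 15.6 in controls and 10.7, 53.1 and 17.0 after laser. The controls alone spanned 4.84-fold, and the second library of each eye was the highest. The log2 difference was 0.47 with a standard error of 0.68 (adjusted p = 0.9998), and -0.16 without the second lasered library. How the authors' counting split reads between Abca8a and its close paralog Abca8b is not stated in the sources used, so its values are uncertain.

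Counted by overlap, 4 of the 8 members lay higher after laser with no overlap on day 3, where 27.7% of all genes did, and 1 (Glul) lay lower, where 3.82% did. The 4 were Slc1a3, Dkk3, Kcnj2 and Kcnj10. On day 7 the 3 that lay higher were Aqp4, Glul and Car14, beside 6.78% of all genes, and none lay lower, beside 2.11%. Without the first lasered library of day 3 the same 4 and 1 members were counted (all genes 31.6% and 4.77%). Without the second lasered library of day 7 the same 3 were (13.1% and 7.90%). Leaving out a library cannot make separate groups overlap, so these counts could stay or grow but not fall. When the second library of both eyes was left out on day 7, 5 members lay higher, with Dkk3 and Kcnj10 added (19.5% of all genes).

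**Figure D2:**
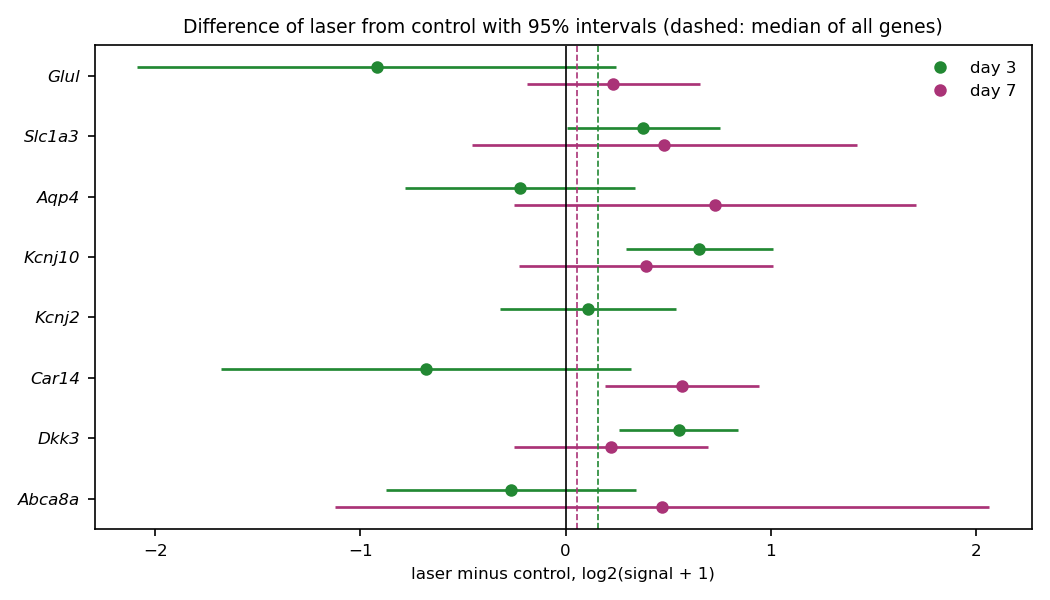
Log2 difference of laser minus control for each member on day 3 and day 7, from the fit on log2(value + 1), with bars for the 95% interval and dashed lines for the median of all genes. On day 3 Dkk3 (0.55), Kcnj10 (0.65) and Slc1a3 (0.38) lie above 0 and Glul (-0.92) has the widest bar; on day 7 all 7 tested members lie above 0.

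The laser effect was compared between the days by the interaction over all 12 libraries, in which 0% of 17611 genes passed (1654 of them at an unadjusted p under 0.05). The laser difference of Car14 on day 7 exceeded that on day 3 by 1.25 with a standard error of 0.50 (95% interval 0.16 to 2.34, adjusted p = 0.475). For Glul the gap was 1.15 with a standard error of 0.57 (adjusted p = 0.564), and for Aqp4 0.95 with a standard error of 0.50 (adjusted p = 0.605). Without the first lasered library of day 3 these gaps were 0.70 for Car14, 0.51 for Glul and 0.72 for Aqp4. Without the second lasered library of day 7 they were 1.32, 1.13 and 0.45. For Kcnj10 and Dkk3 the gap was -0.26 and -0.33, in the other direction, and for Slc1a3 it was 0.10.

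The levels of the members among themselves also differed between the days. On day 3 the control means ordered the members as Dkk3 (467), Glul (315), Car14 (124), Slc1a3 (68.9), Aqp4 (57.3), Abca8a (20.4), Kcnj10 (3.57) and Kcnj2 (1.01). In that order the neighbours whose control values overlapped were Slc1a3 and Aqp4. On day 7 the order was Glul (3466), Dkk3 (769), Car14 (125), Slc1a3 (36.3), Kcnj10 (35.3), Abca8a (18.3), Aqp4 (3.51) and Kcnj2 (0.834), with overlap of Slc1a3 with Kcnj10 and of Kcnj10 with Abca8a. Between the control means of the separately normalised tables, Glul was 11.0-fold and Kcnj10 9.90-fold higher on day 7 and Aqp4 was 16.3-fold lower, while Car14 (124 and 125) and Abca8a (20.4 and 18.3) were close. Day and table cannot be told apart in that gap, and its rank correlation with the GC content of the gene was 0.581 across 12230 genes. Whether base composition also shaped the order of the members within each table was not tested.

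**Figure D3:**
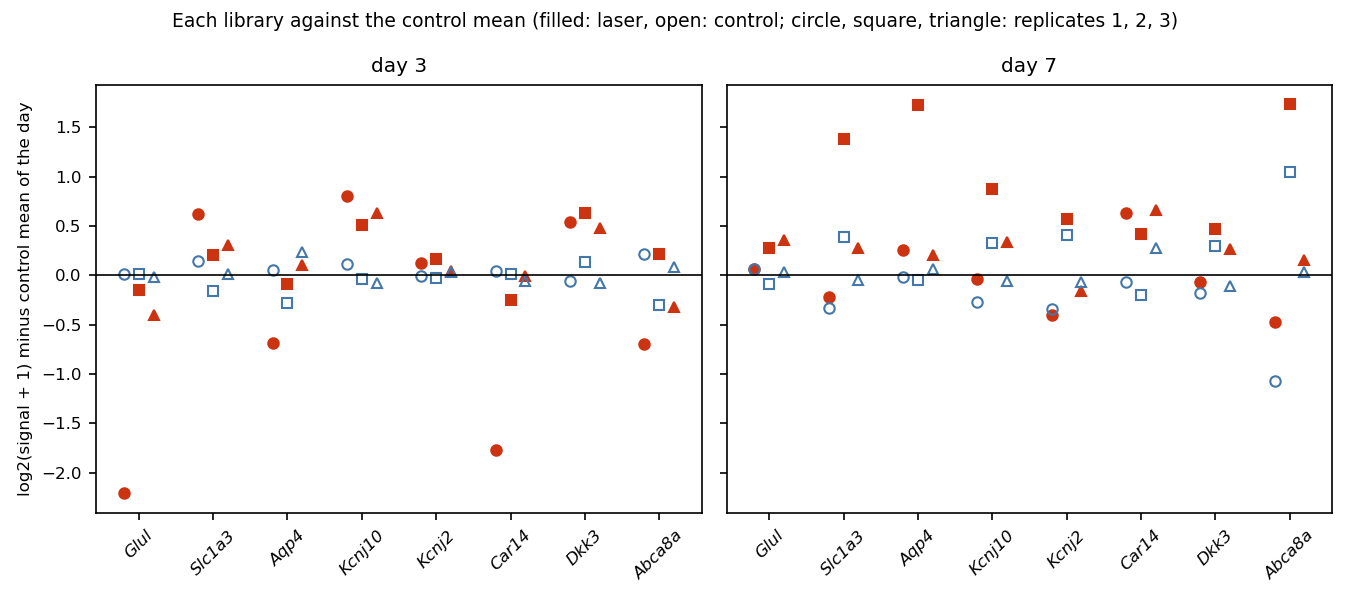
Log2 distance of each library (filled for laser, open for control, with 1 shape per replicate) from the control mean of its day, on the log2(value + 1) scale, for each member. On day 3 the first lasered library is lowest for Glul (-2.21) and Car14 (-1.77) while all 3 lasered ones lie above 0 for Kcnj10 and Dkk3; on day 7 the second lasered library is highest for Aqp4 (1.72) and Abca8a (1.74).

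The first lasered library of day 3 also carried the strongest injury markers. Its summed level of 14 reactive gliosis genes was 7526, against 412 and 676 in the other lasered libraries and 69.5 to 81.6 in controls. Gfap was 412 there, against 93.8 and 104, and 5.32 to 8.68 in controls. Its summed level of 7 infiltrating myeloid markers was 2316, against 175 and 255, and 34.1 to 41.6 in controls, with none of the 7 at 0 in all libraries. Spp1 alone was 1170, 138 and 163 of these sums after laser and 26.5 to 32.8 in controls. Ccr2 was 0 in the controls and 8.32, 0.111 and 0.313 after laser. In the first lasered library Glul lay 2.21 and Car14 1.77 log2 units below the control mean, Aqp4 0.68 and Abca8a 0.70 below, and Dkk3 0.54 and Kcnj10 0.81 above. The part of other cells in these member values was not tested.

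On day 7 the deviation of the second library tracked base composition. Across genes, the rank correlation of a library's deviation from its group mean with GC content was -0.732 for the second lasered library and -0.573 for the second control library, against 0.654, 0.584, 0.539 and 0.159 for the others of that day. Aqp4, Abca8a and Slc1a3, the members with a GC content of 41.4%, 43.4% and 45.7%, lay 1.00, 1.27 and 0.90 above their lasered mean in the second lasered library. Car14, with the highest GC content of the members (51.4%), lay 0.15 below it, and Glul (49.2%) 0.05 above. The members did not follow GC content in strict order: Kcnj2, with the lowest (41.2%), lay 0.57 above, Kcnj10 (49.6%) 0.48 above and Dkk3 (51.0%) 0.25 above. With the GC trends removed the laser difference was 0.66 for Aqp4 and 0.57 for Car14 (adjusted p = 0.676 and 0.245). The second control library was not high for Aqp4 (0.05 below its mean), although it was for Abca8a (1.04 above).

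**Figure D4:**
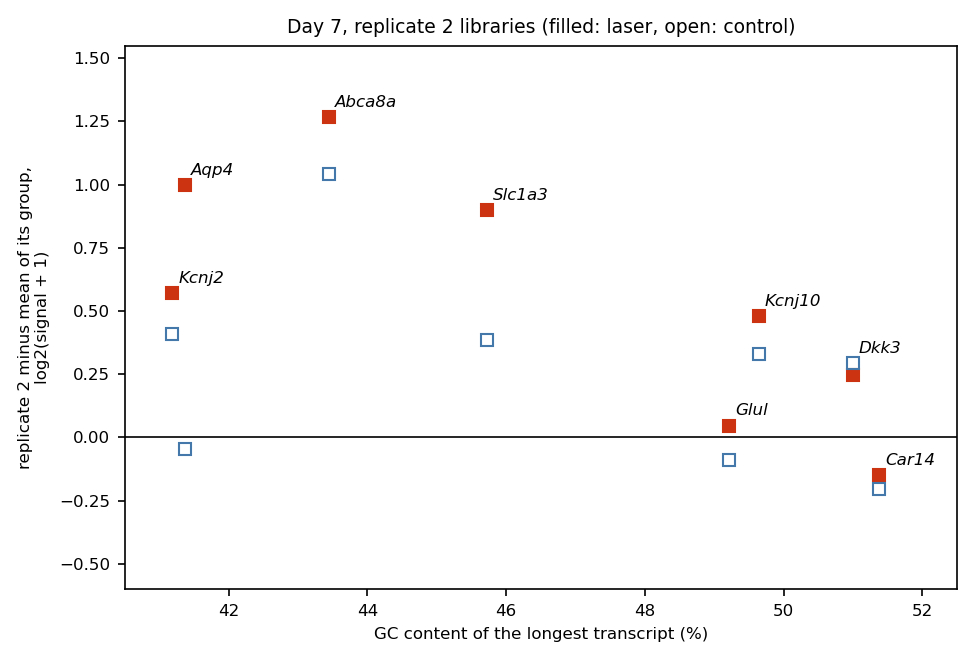
Distance of the second library of day 7 from its own group mean, in log2 units, against the GC content of each member's longest transcript, for lasered and control eyes. Abca8a (43.4% GC) and Slc1a3 (45.7%) lie above 0 in both eyes, Aqp4 (41.4%) lies above 0 in the lasered eye only, and Car14 (51.4%) lies below 0 in both.

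On day 7 the deviations of libraries with the same replicate number had correlations of 0.484, 0.559 and 0.128 across 15592 genes, which are not independent replicates. Unequal numbers gave 0.205 for lasered 3 with control 1 and 0.118 for lasered 1 with control 3. The other unequal numbers gave -0.533 to -0.161. Equal numbers were thus not clearly set apart as pairs, and differences within a number are given only beside the main fit. For Car14 they were 0.70, 0.62 and 0.39, and for Kcnj10 0.24, 0.54 and 0.39. For Glul they were 0.0013, 0.37 and 0.33. All 7 tested members were higher in 3 of 3 numbers, and Kcnj2 in 1 of 3. The share of all genes higher in 3 of 3 numbers was not computed, so this count is not a result about the members. In the day 7 fit 61.5% of all genes were positive. With the replicate block, Car14 had an adjusted p of 0.206 and Kcnj10 of 0.437, and no member passed.

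The partner genes of each route were taken from lists of known function, chosen with earlier results of these data known. Among 13 genes of glutamate, glutamine, GABA and glycine handling, 9 were positive and 4 negative on day 3, with a median of 0.23. Beside them, 68.2% of all genes were positive, with a median of 0.16. Of the 13, 0 passed on day 3, and 0 of 12 tested passed on day 7. The 2 with the smallest p on day 3 were Slc6a11, a GABA carrier (0.51, adjusted p = 0.129), and Slc38a2, a glutamine carrier (0.66, adjusted p = 0.132). Among potassium channels and subunits of the sodium pump, 0 of 11 tested passed on day 3 (median 0.42, all genes 0.16). On day 7, 0 of 12 passed (median 0.03, all genes 0.06). Atp1b2, an auxiliary subunit of the pump, was 0.76 higher on the log2 scale on day 3 (adjusted p = 0.113).

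Of the water channel, volume and dystrophin complex genes, which anchor Aqp4 and Kcnj10 at the endfeet, 0 of 11 tested passed on either day. Dystroglycan Dag1 differed by 0.53 on day 3 (adjusted p = 0.243). Among the carbonic anhydrases, bicarbonate and lactate carriers, 0 of 12 tested passed on either day. Bsg, the chaperone of the lactate carriers, was 1.24 higher on day 3 (adjusted p = 0.0967), and Car4 differed by -0.62 on day 7 (adjusted p = 0.9998). Of the Dickkopf family and the Wnt co-receptors, 0 of 2 tested passed on day 3 and 0 of 5 on day 7. The receptor Kremen1 was 1.27 higher on day 3 (adjusted p = 0.0999). Dkk1 was listed at 0 in all libraries of both days, and Dkk4 in those of day 7. Of the ABCA transporters, 0 of 7 tested passed on day 3 and 0 of 6 on day 7.

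Some other Müller glia genes and reactive genes passed. Their lists were also chosen with earlier results of these data known, so they are no independent contrast to the members. Crym, a thyroid hormone binding protein of Müller glia, rose on day 3 by 2.94 (adjusted p = 0.045) and on day 7 by 1.26 (adjusted p = 0.0243), and the chaperone Clu rose on day 7 by 1.18 (adjusted p = 0.0444). That made 1 of 9 other Müller glia markers on day 3 and 2 of 9 on day 7. Among 13 tested reactive gliosis genes, Edn2 and Gfap rose on day 3, and Serpina3n, Edn2, Timp1, Gfap and Stat3 rose on day 7. Edn2, an endothelin, was 0.868, 1.33 and 0.810 in controls and 77.2, 23.0 and 32.1 after laser on day 3. Of 9 microglia markers, 1 rose on day 3 and 4 on day 7, and the summed microglia level on day 3 was 154.5 to 254 after laser against 44.0 to 52.8 in controls. Among markers of other cells on day 3, 0 of 3 tested astrocyte, 0 of 7 infiltrating myeloid, 0 of 5 endothelial, 0 of 7 rod, 0 of 8 pigment epithelium, 0 of 4 bipolar and 0 of 4 ganglion cell genes passed. On day 7 the lysosomal protein Cd68 rose among 3 tested infiltrating myeloid genes, by 1.62 (adjusted p = 0.0202). Ccr2, Ly6c2, S100a8 and S100a9 of that list lay under the filter on day 7, at 0.4505 or less in every library. Of the other cell types on day 7, 0 of 3 astrocyte, 0 of 7 endothelial, 0 of 7 rod, 0 of 7 pigment epithelium, 0 of 4 bipolar and 0 of 4 ganglion cell genes passed. The pigment epithelium sum varied widely between libraries, from 57.3 to 634 after laser and from 316 to 500.2 in controls on day 3. Fitted member differences ranged from -0.92 to 0.65 on day 3, and those of day 7 from 0.22 to 0.73.

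The genes most like each member were found by the root mean square difference over the 12 libraries, among 13418 genes. Nearest to Kcnj10 were Parva and Nln (0.11 each, where the median gene was at 0.43). Nearest to Dkk3 were Vcp-rs (0.09) and Tsg101 (0.11), and nearest to Slc1a3 were Pgm2l1 and Zfp148 (0.12 each). Nearest to Glul were Gnat2 (0.23) and Ccdc180 (0.24), and nearest to Car14 were Glul and Spon2 (0.27 each). For Aqp4 they were Aldoa-ps4 (0.15) and Gulp1 (0.23), for Abca8a Amd2 (0.22) and Amd-ps3 (0.23), and for Kcnj2 Cramp1l (0.06) and Ndc1 (0.07). Small distances for Kcnj2 come with its low level, where log2(value + 1) hardly moves.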

How the data were processed

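Poly(A) RNA of 12 retina libraries, 3 per group, was analysed, with groups and replicate numbers from the sample titles. The submitters' processing notes list STAR 2.7.0, edgeR 3.28.0 and mm10, with no role given. How reads were counted, whether by strand and on which annotation: not given in the sources used here. A directional kit was used, per the labels' protocols.

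Each deposited value is a gene's normalised signal, which the authors name TPM. Column sums of 953049 to 1045986 are not those of strict TPM, and the test planned for log2 values was kept. Multiplied by union exon length in GENCODE M21, 98.9% to 99.1% of low values were whole reads within 0.05, once a factor cycling over 6 table positions (0.955 to 1.04 on day 3, 0.962 to 1.05 on day 7) was divided out. The tests kept the deposited signal.

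The days were fitted separately with limma 3.58.1 in R 4.3.3 (trended prior variance, 2-sided) on log2(value + 1), a scale that understates fold changes of low genes. Genes needed a mean value of 1 or more, and Benjamini-Hochberg adjustment ran over all genes tested. The script was tested on simulated data. An interaction over 12 libraries compared the days. Tables were handled with Python 3.11.15, pandas 2.3.3 and NumPy 2.4.6, and figures drawn with matplotlib 3.10.9.

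Alternatives were the filter, the pseudocount, 2 scalings, library weights, a joint fit, the replicate block and leaving out each library. Undoing the cyclic factor, removing GC trends (lowess on the GC content of the longest transcript), the block with GC trends removed and the overlap counts without single libraries were added after seeing the data. Libraries with equal replicate numbers correlated in their deviations at 0.0413, 0.0162 and 0.0766 on day 3 and at 0.484, 0.559 and 0.128 on day 7. By the rule that every pair exceeds 0.1, the numbers pair the day 7 libraries only. That rule does not separate equal from unequal numbers, since lasered 3 with control 1 of day 7 had 0.205. The labels do not say that the numbers mark the same mouse.

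The text names all 8 members, genes of 8 partner lists and 8 cell type lists that passed the test or, where none did, had one of the 2 smallest p-values, Gfap and Edn2, and the 2 genes nearest in pattern to each member, predicted genes left out; some genes this rule names are not reported here. The members and lists were chosen with earlier results of these data known.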

Additional observations from a re-analysis of the deposited data

Results flagged for a closer look

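For Glul and Car14 every lasered library lay below the control mean on day 3 and above it on day 7. For Car14 the third lasered library of day 3 lay within the range of the controls. The share of all genes with this pattern was not computed, so the pattern is not a result about Glul and Car14. The laser difference of day 7 exceeded that of day 3 by 1.15 for Glul (limma interaction over 12 libraries, adjusted p = 0.564) and by 1.25 for Car14 (adjusted p = 0.475), so neither passed. The gap was 0.51 for Glul and 0.70 for Car14 without the first lasered library of day 3.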

How the results depend on the processing

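No member passed the threshold on either day or between the days under any of the 23 other settings tried; the smallest adjusted p was 0.0526, for Dkk3 on day 3. Of 406 recomputed member values 398 kept their direction and 8 turned sign. Kcnj2 on day 3 was -0.0102 under median-of-ratios rescaling and -0.0766 under quantile normalisation, and Abca8a on day 7 was -0.18 with library weights. Leaving out 1 library at a time, Aqp4 on day 3 ranged from -0.39 to 0.0065, Abca8a on day 7 from -0.16 to 0.99, and the Slc1a3 difference between the days from -0.35 to 0.45. Kcnj2 and Kcnj10 gave no value where they lay under the filter.

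The counts over all genes moved more. The 25 genes of day 3 became 1016 in the joint fit, 369 with library weights, 15 with GC trends removed, 14 under median-of-ratios rescaling, 12 under quantile normalisation, and 0 without a filter, with the replicate block, and with the replicate block with GC trends removed. Leaving out 1 library gave 0 to 294, the highest without lasered replicate 1. The 38 genes of day 7 became 114 with library weights, 72 with GC trends removed, 77 with the replicate block and GC trends removed, 53 with the replicate block alone, 24 under median-of-ratios rescaling, 22 in the joint fit and 0 without a filter. Leaving out 1 library gave 0 to 41. Between the days the 0 genes became 1119 with library weights, 51 without a filter and 2 with a pseudocount of 0.1, and 0 to 3 when 1 library was left out. Without a filter more genes were tested, and without a library the fit had fewer samples; for the other settings the cause was not tested. The replicate block changed no call of a member. At 28 to 46 reads a library on day 3, Kcnj2 is limited by counting.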
